A study of Mus musculus with 9 samples.

Results

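The insulin-like growth factor (IGF) ligands and their binding proteins were followed in the ventricles of mice with a raised or lowered activity of phosphoinositide 3-kinase (PI3K), through every probe set that the platform annotation gives to Igf1, Igf2, Igfbp2, Igfbp3, Igfbp4, Igfbp5 or Igfbp6. Of these 7 genes 6 had a probe set of their own, 11 probe sets in all out of 12488 on the array. The only probe set that names Igfbp5, 100566_at, is also annotated to Tmem119, so its values belong to that pair of genes and are kept apart from the 11. The caPI3K group carried a constitutively active PI3K transgene, and the labels put its heart size 20% above wild type littermates. In the dnPI3K group the transgene was a dominant negative PI3K, with hearts smaller by 17%, and the NTG group had no transgene. Each group had 3 mice with 1 array each, all of ventricle only. The labels name neither the promoter that drives the transgenes nor the mouse strain, the founder line or the age.

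IGF-I and IGF-II are secreted peptides that activate the IGF-I receptor, which signals through the insulin receptor substrates to PI3K and the kinase Akt. The IGF binding proteins hold the ligands in blood and tissue, and depending on the protein and its proteases they either keep ligand from the receptor or deliver it. In the heart this route promotes the growth of cardiomyocytes. The transgenes act below the receptor, so the comparisons ask whether ligand and binding protein transcripts upstream of PI3K differed when its activity was changed.

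Levels are quantile-normalized intensities, given as mean ± SD (n = 3 arrays a group), and have no meaning across different probe sets. For testing, values under 35.34, the 20th percentile, were raised to that floor. Of the 11 probe sets 10 were tested, being above the floor on at least 3 arrays. Log2 fold changes are the first group minus the second, with the moderated standard error (SE) from limma, and a probe set passed if its p, adjusted over all 10645 probe sets tested, was under 0.05. The p-values set each group difference against the spread of these 9 arrays within their groups, moderated over all probe sets tested.

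The ventricular markers were bright on every array, with the sum of 6 measured genes between 184400 and 205200 on all 9 and none of them on the floor. The 5 atrial markers did not move as one, although their sums overlapped (2169 to 21120 in NTG, 2438 to 13510 in caPI3K and 8719 to 11350 in dnPI3K). The atrial myosin light chain gene Myl4 read 6896, 3669 and 222.7 in NTG, 498.6, 421.4 and 4304 in caPI3K and 27.91, 49.68 and 36.14 in dnPI3K, and Myl4 and Myl7 were lower in dnPI3K than in NTG (log2 fold changes -5.48 and -5.19, adjusted p = 0.04 and 0.0476). Nppa, an atrial gene that the stressed ventricle also makes, gave most of the dnPI3K sum, with a mean of 9612 against 4046 in NTG (adjusted p = 0.148). The dnPI3K arrays stood apart in control probe sets. The 3′ control for 18S ribosomal RNA lay between 3265 and 8567 on them and between 450.5 and 670.6 on the other arrays, and the 9 hybridisation controls had a geometric mean of 3023 ± 272 on caPI3K arrays, 2988 ± 369 on NTG arrays and 1790 ± 212 on dnPI3K arrays. The animal numbers of the dnPI3K mice share no series with those of the other groups, so number series and the dnPI3K genotype cannot be told apart in any result on that group. What part the control signals had in those results was not tested.

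Across the family, Igf2 was lower in dnPI3K than in NTG and Igfbp3 was lower in caPI3K than in dnPI3K, while no probe set of Igf1, Igfbp2, Igfbp4 or Igfbp6 passed in any comparison. For caPI3K against NTG 0 of 10 probe sets passed in limma (0.0845% of all probe sets tested), and 1 had an unadjusted p under 0.05 (6.9% of all). For dnPI3K against NTG 1 of 10 passed (2.18% of all), as lower (1.16% of all), and 2 had an unadjusted p under 0.05 (14.8% of all). For caPI3K against dnPI3K 2 of 10 passed (3.24% of all), both of them Igfbp3 and both lower in caPI3K (1.54% of all), and 5 had an unadjusted p under 0.05 (16.4% of all). The moderated F over the 3 groups called 1 of 10 (2.63% of all). The median log2 fold change of the 10 was -0.03, -0.17 and 0.26 in the 3 comparisons, beside 0 over all probe sets in each. The comparisons share groups, each pair of them having 1 in common, so their values are not independent.

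**Figure D1:**
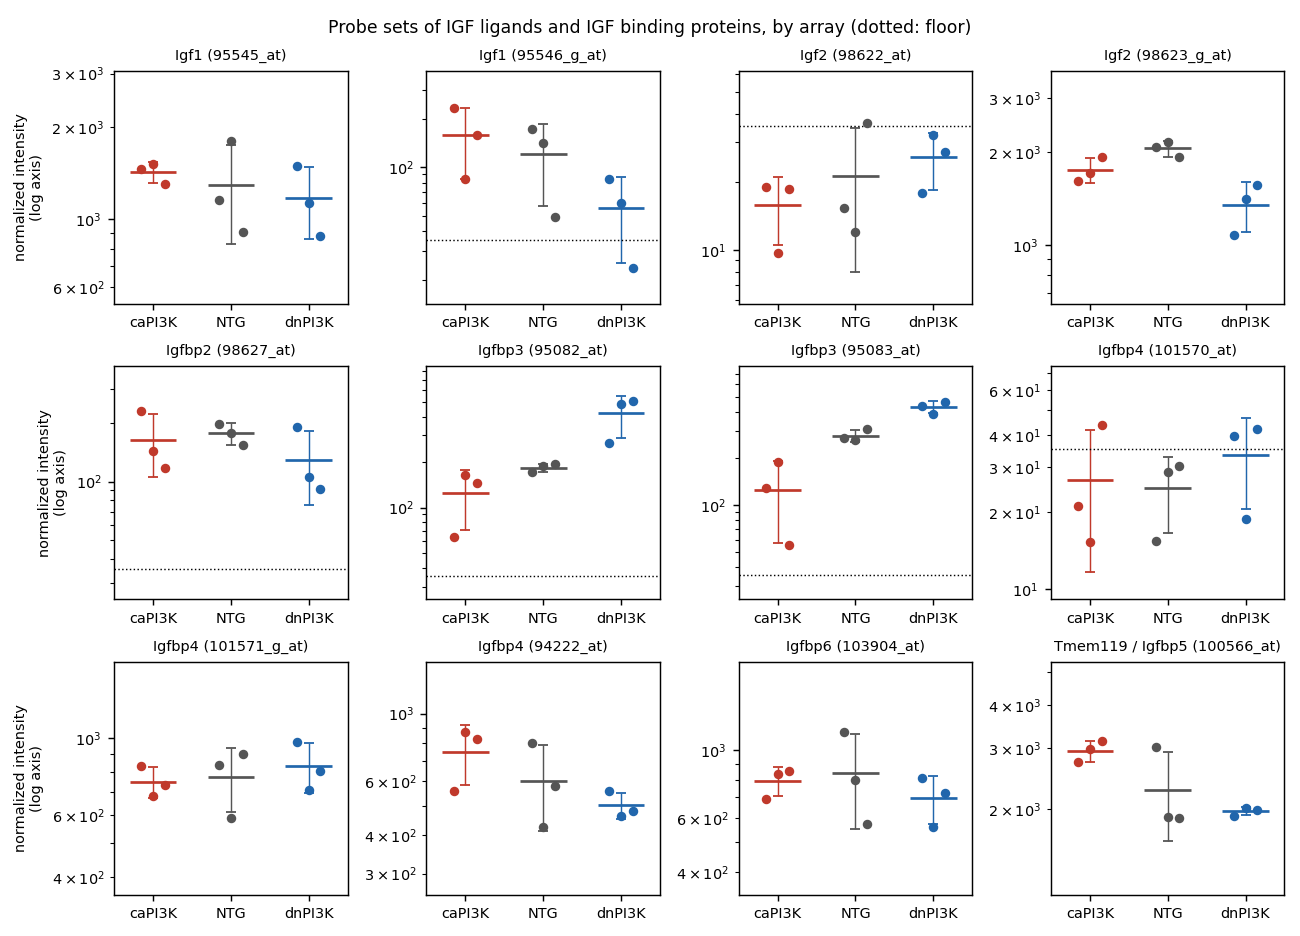
Normalized intensity (log axes, scales differ between panels) of the 12 probe sets on each array, with replicates 1 to 3 from left to right, bars at the group mean and error bars of 1 SD (n = 3). The dotted line is the floor of 35.34. Both Igfbp3 panels step upward from caPI3K over NTG to dnPI3K, and the bright Igf2 panel has its 3 dnPI3K arrays lowest, at 1075 to 1560.

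Of the ligands, Igf2 fell in the smaller dnPI3K hearts. Igf2 encodes a growth factor of fetal life, transcribed from the paternal allele in most mouse tissues and much reduced after birth. Its bright probe set 98623_g_at read 2084, 2162 and 1922 on the NTG arrays, 1618, 1713 and 1935 on the caPI3K arrays and 1075, 1412 and 1560 on the dnPI3K arrays. All dnPI3K arrays were thus below all arrays of both other groups, while caPI3K and NTG overlapped. The means were 1349 ± 249 for dnPI3K, 1756 ± 163 for caPI3K and 2056 ± 122 for NTG.

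The fall from NTG to dnPI3K was -0.62 ± 0.137 on the log2 scale (95% interval -0.92 to -0.32, adjusted p = 0.0455), or 0.649 of the NTG level. The difference of caPI3K from NTG was -0.23 ± 0.137 (adjusted p = 0.784). Between caPI3K and dnPI3K it was 0.39 ± 0.137 (interval 0.09 to 0.69, adjusted p = 0.166), which did not pass. In 3 of 10 member probe sets the dnPI3K and NTG arrays did not overlap, against 19.1% of all probe sets tested. Some markers of other muscle moved in the same comparison. Of 6 skeletal muscle genes, Myl1 and Casq1 were lower in dnPI3K than in NTG (log2 fold changes -2.02 and -1.84, adjusted p = 0.00325 and 0.00272). Tnnt3, Pvalb and Myh4 did not pass (0.20, -0.46 and -0.31, adjusted p = 0.87, 0.297 and 0.5), and Tnni2 was on the floor on every NTG and caPI3K array. The sums of the 6, in which the brightest genes weigh most, were 3356 to 4309 in dnPI3K, 8011 to 11480 in NTG and 14720 to 21520 in caPI3K. Of the 5 atrial genes Myl4 and Myl7 were lower too, while Nppa was higher without passing, as given above. Sln and Bmp10 did not pass (0.74 and -0.27, adjusted p = 0.456 and 0.853), and Sln was on the floor on every NTG array. What part the skeletal muscle or atrial genes had in the Igf2 values was not tested. The Igf2 call was close to the threshold: it was lost when any 1 array other than dnPI3K replicate 3 was left out, with log2 fold changes of -0.73 to -0.47 and adjusted p of 0.045 to 0.136. Over all 16 other settings it passed under 2. By the moderated F over the 3 groups Igf2 did not pass (adjusted p = 0.0751).

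The second Igf2 probe set, 98622_at, gives no support either way, although the annotation ties both to the same database sequence. It lay under the floor on 8 of 9 arrays, between 9.667 and 36.48, and was not tested. The array therefore measures Igf2 through 1 usable probe set. RefSeq gives Igf2 4 start sites in the promoter table (build GRCm38.p6), and the probe sets do not say which of them was used. The 100 bases before each are shown because they differ in composition, and capitals mark the letters AAACAA on either strand, the core of an insulin response element.
Igf2 start site 1, chr7:142666817-142666916, minus strand: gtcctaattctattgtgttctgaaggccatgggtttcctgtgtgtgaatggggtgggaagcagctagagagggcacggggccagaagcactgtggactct
Igf2 start site 2, chr7:142661272-142661371, minus strand: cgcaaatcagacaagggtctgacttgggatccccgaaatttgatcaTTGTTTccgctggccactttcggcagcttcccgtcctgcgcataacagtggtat
Igf2 start site 3, chr7:142658805-142658904, minus strand: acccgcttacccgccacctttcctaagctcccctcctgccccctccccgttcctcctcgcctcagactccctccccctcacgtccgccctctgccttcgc
Igf2 start site 4, chr7:142657497-142657596, minus strand: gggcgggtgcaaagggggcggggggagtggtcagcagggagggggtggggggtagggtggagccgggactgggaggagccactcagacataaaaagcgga
Over the 250 bases before each start site, the content of G and C was 50.8%, 47.6%, 68.8% and 66% in this order, with 1, 10, 22 and 6 CpG dinucleotides. The letters AAACAA occurred before the second start site alone, as they do in 18.3% of the 32851 RefSeq windows of that length.

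Igf1 encodes the main ligand of the IGF-I receptor after birth, made in the liver under growth hormone and locally in many tissues. On its brighter probe set, 95545_at, the arrays read 1455, 1518 and 1303 in caPI3K, 1156, 1804 and 908.2 in NTG and 1497, 1128 and 879.9 in dnPI3K. The NTG arrays alone, spread over 1.99-fold, took in all others but 1, and the 3 groups overlapped. The log2 fold change was 0.20 ± 0.241 for caPI3K and -0.12 ± 0.241 for dnPI3K against NTG (adjusted p = 0.893 and 0.876). The 95% intervals of these differences, -0.33 to 0.73 and -0.65 to 0.42, leave room for changes of Igf1 in either direction.

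The dim Igf1 probe set 95546_g_at, designed from the same sequence, read 159 ± 75 in caPI3K, 121.2 ± 64.2 in NTG and 55.81 ± 30.5 in dnPI3K. Its log2 fold change between caPI3K and dnPI3K was 1.38 ± 0.543 (unadjusted p = 0.0279, adjusted p = 0.224), and 1 dnPI3K array was on the floor. This difference did not pass, and on the brighter probe set it was 0.32 ± 0.241. The Pearson correlation of both Igf1 probe sets over the 9 arrays was 0.66, given as a description.

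Among the binding proteins, Igfbp3 showed the widest separation of the groups. Igfbp3 encodes the main IGF carrier of blood serum, which holds ligand there together with the acid labile subunit. Probe set 95082_at read 64.07, 163.1 and 144.9 in caPI3K, 171.2, 187.5 and 192.8 in NTG and 268.4, 482.1 and 506.7 in dnPI3K. Probe set 95083_at, designed from another sequence, read 127.9, 190 and 55.33 in caPI3K, 269.2, 263.5 and 309.1 in NTG and 437.4, 387.9 and 461.9 in dnPI3K. On both, every caPI3K array was below every NTG array and every NTG array below every dnPI3K array. That order without overlap held for 51 of 10645 probe sets (0.479%), chosen for counting after the Igfbp3 values were seen.

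Against dnPI3K, Igfbp3 in caPI3K was lower by 3.51-fold on 95082_at and 3.88-fold on 95083_at. The log2 fold changes were -1.81 ± 0.372 (interval -2.63 to -0.99, adjusted p = 0.0262) and -1.96 ± 0.374 (interval -2.78 to -1.13, adjusted p = 0.0182). Neither transgenic group passed against NTG, the group in between. In caPI3K against NTG the values were -0.68 ± 0.372 and -1.34 ± 0.374 (adjusted p = 0.767 and 0.462). In dnPI3K against NTG they were 1.14 ± 0.372 and 0.61 ± 0.374 (adjusted p = 0.176 and 0.503). The moderated F over the 3 groups passed on 95083_at (adjusted p = 0.0403) and not on 95082_at (adjusted p = 0.06).

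Both Igfbp3 probe sets gave the groups the same order but ranked the arrays within them differently. Their correlation over the 9 arrays was 0.70, and after the group means were removed it was -0.07. In caPI3K the lowest array was replicate 1 on 95082_at and replicate 3 on 95083_at. Leaving out single arrays moved the caPI3K against dnPI3K difference between -2.11 and -1.39 on 95082_at, which did not pass without caPI3K replicate 1, dnPI3K replicate 2 or dnPI3K replicate 3 (highest adjusted p = 0.109). On 95083_at it lay between -2.33 and -1.46 and did not pass without any 1 of the dnPI3K arrays (highest adjusted p = 0.0694), while without caPI3K replicate 1 it was just inside the threshold. In animals numbered from 2800 (2 per group) and from 3100 (1 per group), caPI3K minus NTG was -0.81 and -0.41 on 95082_at and -0.77 and -2.48 on 95083_at.

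**Figure D2:**
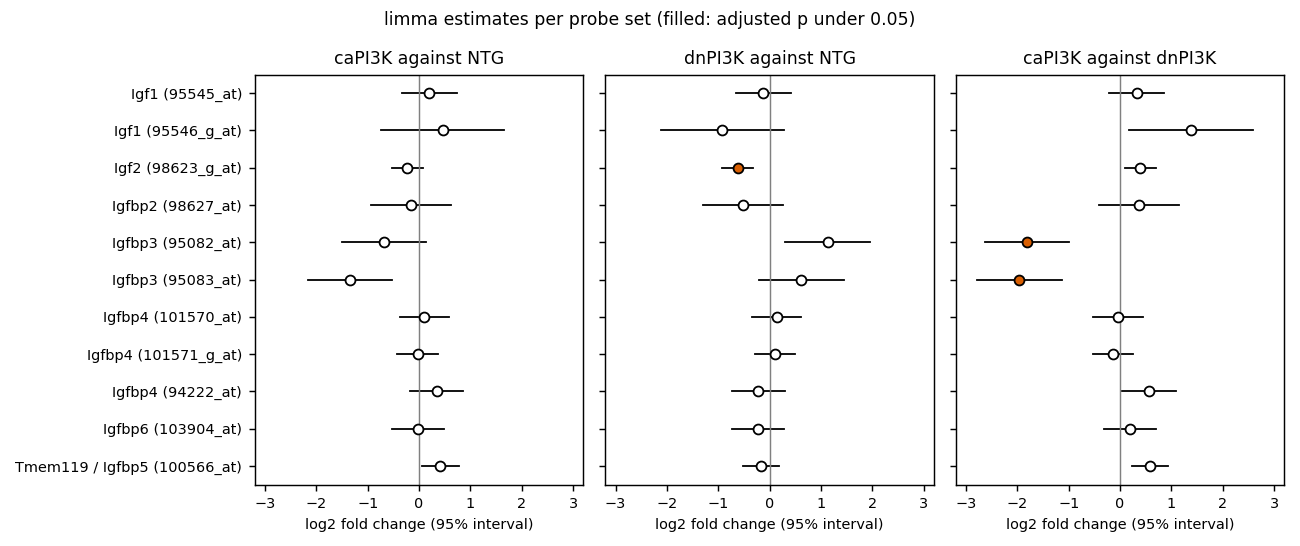
Log2 fold changes (horizontal axes) with 95% intervals for the 10 tested probe sets of the 6 genes and the joint Tmem119 / Igfbp5 probe set, in each of the 3 comparisons. Filled points passed at an adjusted p under 0.05: Igf2 at -0.62 in dnPI3K against NTG, and Igfbp3 at -1.81 and -1.96 in caPI3K against dnPI3K.

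Of 5 markers of vascular smooth muscle, Acta2 alone kept the Igfbp3 order without overlap. The sum of the 5 lay between 1926 and 2424 in caPI3K, between 2504 and 2987 in NTG and between 3895 and 4709 in dnPI3K. Acta2 was the brightest of the 5 on every array, so the sum is no separate evidence of that order. Acta2, smooth muscle alpha-actin, read 868.3 ± 181, 1272 ± 161 and 2555 ± 468 in the same order of groups. The smooth muscle myosin gene Myh11 was lower in caPI3K than in dnPI3K (log2 fold change -1.20 ± 0.261, adjusted p = 0.0334), with overlap between caPI3K and NTG. Tagln had means of 449.1, 565.6 and 664.6 with overlap between NTG and dnPI3K, and did not pass (-0.56 between caPI3K and dnPI3K, adjusted p = 0.0789). Smtn had another order, 631.5, 577.4 and 666.2, and did not pass, and Cnn1 was on the floor on every caPI3K and dnPI3K array. The sum of 8 endothelial markers was 9234 to 11110 in caPI3K, 10040 to 11870 in NTG and 11470 to 11830 in dnPI3K, and 0 of these genes passed in any comparison. Their median log2 fold change between caPI3K and dnPI3K was -0.25. Kdr, Tie1, Vwf, Emcn and Eng were lower in caPI3K (-0.77, -0.48, -0.45, -0.30 and -0.21), and Pecam1, Cdh5 and Tek higher (0.31, 0.21 and 0.17). Between caPI3K and dnPI3K, Myl1 and Casq1 were higher in caPI3K (log2 fold changes 3.22 and 2.68, adjusted p = 0.000122 and 0.000143) and Nppa lower (-2.22, adjusted p = 0.0282). Of 8 fibroblast markers 1 passed there, Col1a1, which was higher in caPI3K (0.99, adjusted p = 0.018). The median log2 fold change of the fibroblast markers in that comparison was 0.23. What part these cell types had in the Igfbp3 values was not tested, and in whole ventricle RNA more cells of a type and more RNA per cell cannot be told apart.

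Irs2, an insulin receptor substrate that links the receptor to PI3K and a known target of the FoxO factors that Akt holds inactive, also had the Igfbp3 order. It read 49.09, 44.38 and 91.46 in caPI3K, 158.3, 148.9 and 107.4 in NTG and 342.9, 491.1 and 398.2 in dnPI3K. Every array kept to that order, and caPI3K was lower than dnPI3K by 6.96-fold (log2 fold change -2.80 ± 0.331, adjusted p = 0.00138). The 250 bases before the RefSeq start sites of Igfbp3 and Irs2 are shown since both moved together, with Igfbp1, the family member in which the insulin response element is best known (build GRCm38.p6). Capitals mark AAACAA on either strand. The FoxO core GTAAACA, which can share letters with it, was searched as well on both strands.
Igfbp3, chr11:7213924-7214173, minus strand: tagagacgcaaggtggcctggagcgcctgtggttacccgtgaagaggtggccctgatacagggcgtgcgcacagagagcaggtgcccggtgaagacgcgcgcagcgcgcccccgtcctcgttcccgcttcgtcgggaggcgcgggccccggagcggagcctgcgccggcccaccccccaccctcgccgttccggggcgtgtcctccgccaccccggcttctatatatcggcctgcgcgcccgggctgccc
Irs2, chr8:11008930-11009179, minus strand: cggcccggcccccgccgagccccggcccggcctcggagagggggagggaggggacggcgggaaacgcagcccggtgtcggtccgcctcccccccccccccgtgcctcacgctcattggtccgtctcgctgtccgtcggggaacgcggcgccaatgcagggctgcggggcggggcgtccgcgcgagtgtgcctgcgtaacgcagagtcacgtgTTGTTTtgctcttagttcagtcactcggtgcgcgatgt
Igfbp1, chr11:7197537-7197786, plus strand: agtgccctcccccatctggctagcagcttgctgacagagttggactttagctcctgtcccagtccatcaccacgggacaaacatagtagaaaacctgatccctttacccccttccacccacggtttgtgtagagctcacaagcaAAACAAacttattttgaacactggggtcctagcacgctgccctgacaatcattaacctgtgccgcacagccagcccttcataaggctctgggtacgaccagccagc
AAACAA was found once before Irs2, 38 bases ahead of the start site, as its reverse complement TTGTTT in the sequence shown. It was found once before Igfbp1, 106 bases ahead and as AAACAA in the sequence shown, and did not occur before the Igfbp3 start site shown. That Igfbp3 window lies inside the span RefSeq gives the gene, 7206086 to 7215498, and the bases ahead of that span were not searched. AAACAA occurs in 18.3% of the 32851 windows of this length. GTAAACA occurred before none of the 3, as against 3.17% of those windows. The Igfbp3 window was rich in G and C (73.2%) with 32 CpG dinucleotides, and the Irs2 window (72.8%, 34) was alike in this, while the Igfbp1 window held 53.2% and 5. Such matches describe the letters in these windows.

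Igfbp1 itself, a binding protein of liver known to be repressed by insulin, was dim. Probe set 103896_f_at read 73.16 ± 19.8 in NTG, 27.41 ± 20.4 in caPI3K and 25.72 ± 23.4 in dnPI3K, with 2 of 3 arrays of each transgenic group on the floor. Both transgenic groups lay below the NTG arrays without overlap, and neither difference passed (-0.85 ± 0.298, adjusted p = 0.572, and -0.82 ± 0.298, adjusted p = 0.22). A second Igfbp1 probe set, 103897_r_at, differed by 0.12 and 0.16. It was near the floor in every group, with means of 28.9 in NTG, 32.47 in caPI3K and 36.74 in dnPI3K, and so says little either way.

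**Figure D3:**
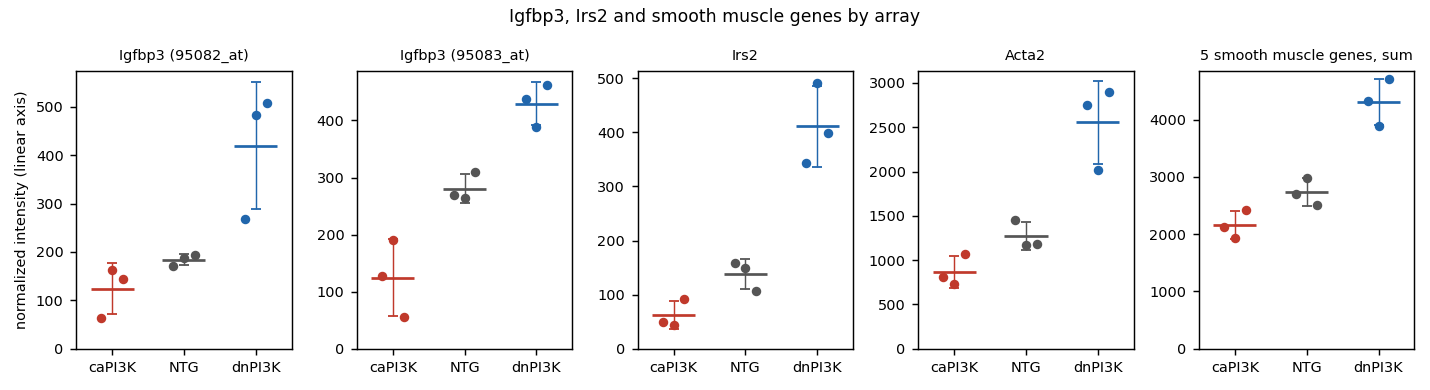
Normalized intensity (linear axes from 0) by array for both Igfbp3 probe sets, Irs2, Acta2 and the sum of 5 smooth muscle genes, with replicates 1 to 3 from left to right, bars at the mean and error bars of 1 SD (n = 3). In each panel the 3 caPI3K arrays lie below the 3 NTG arrays and these below the 3 dnPI3K arrays. The sum includes Acta2, its brightest gene, and so repeats that panel in part.

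The other binding proteins did not pass in any comparison. Igfbp2, a binding protein abundant before birth, read 231.3, 144.1 and 118.1 in caPI3K, 198.8, 178.4 and 153.7 in NTG and 191.1, 105.1 and 91.64 in dnPI3K. The groups overlapped, and the log2 fold change of dnPI3K against NTG was -0.52 ± 0.352 (interval -1.30 to 0.26, adjusted p = 0.554). That of caPI3K was -0.16 ± 0.352 (adjusted p = 0.957).

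Igfbp4, mostly an inhibitor of IGF action until it is cut by the protease Pappa, had 3 probe sets that differed in direction. On 101571_g_at the means were 751.2 ± 77.1 in caPI3K, 775.4 ± 162 in NTG and 831 ± 136 in dnPI3K, and on 101570_at, from the same sequence, 6 of 9 arrays were on the floor and no array exceeded 43.78. On 94222_at, from another sequence, the arrays read 558.4, 868.5 and 827.2 in caPI3K, 800.7, 426.3 and 580.7 in NTG and 557.7, 464.2 and 480.8 in dnPI3K. There caPI3K lay above dnPI3K by a narrow margin, 558.4 against 557.7, with a log2 fold change of 0.56 ± 0.235 (interval 0.04 to 1.08, unadjusted p = 0.0362, adjusted p = 0.258). On 101571_g_at the same difference was -0.14 ± 0.179. In 4 of 10 member probe sets caPI3K and dnPI3K did not overlap, against 23.7% of all tested, and in 2 of 10 caPI3K and NTG did not, against 12.1%.

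Igfbp6, which binds IGF-II far better than IGF-I, read 694.2, 834.8 and 853.3 in caPI3K, 1140, 800.9 and 574.2 in NTG and 809.9, 562.4 and 724.2 in dnPI3K. The NTG arrays again spread over 1.99-fold and took in all others but 1. Its log2 fold change was -0.03 ± 0.229 in caPI3K (adjusted p = 0.988), 0.04 if arrays were scaled to the same median, and -0.22 ± 0.229 in dnPI3K (adjusted p = 0.722).

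The joint Tmem119 and Igfbp5 probe set was even within both transgenic groups. Igfbp5 encodes a binding protein of the extracellular matrix and Tmem119 a membrane protein of bone and microglia. The arrays read 2732, 2978 and 3142 in caPI3K, 1912, 2014 and 1988 in dnPI3K and 3021, 1900 and 1881 in NTG. NTG replicate 1 lay at the caPI3K level and the other NTG arrays just below the dnPI3K arrays. The difference between caPI3K and dnPI3K was 0.58 ± 0.160 (interval 0.23 to 0.93, unadjusted p = 0.00421, adjusted p = 0.0869), and against NTG it was 0.41 ± 0.160 in caPI3K (adjusted p = 0.652). The former passed under 2 of 16 other settings, without NTG replicate 1 (adjusted p = 0.00716) and with only these groups fitted. Without NTG replicate 1 the difference of caPI3K from NTG was 0.64 with an adjusted p of 0.042, within a range of 0.042 to 0.931 over all settings.

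The rest of the pathway was read from 4 lists. Of 16 genes for receptors and receptor-proximal signalling 13 were tested, of which 0 passed in caPI3K against NTG, 1 rose in dnPI3K against NTG and 1 was lower in caPI3K than in dnPI3K, in each case Irs2. The rise of Irs2 in dnPI3K (log2 fold change 1.58 ± 0.331, adjusted p = 0.04) did not pass without caPI3K replicate 1 or any 1 of the dnPI3K or NTG arrays (highest adjusted p = 0.148). The IGF-I receptor gene Igf1r read 1333 ± 64.1 in NTG, 977.6 ± 185 in caPI3K and 992.5 ± 77.8 in dnPI3K. It lay below NTG in both transgenic groups without overlap, by -0.46 ± 0.138 and -0.43 ± 0.138, and passed in neither (adjusted p = 0.484 and 0.167). Irs1, the other main substrate of the heart, was near the floor, with 84.74 ± 13.5 in dnPI3K and 4 of the other 6 arrays on the floor, and did not pass (0.96 ± 0.326, adjusted p = 0.193).

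In the other lists no gene passed in any of the 3 comparisons. These were 8 tested genes for related binding proteins, carriers and proteases, 7 of the growth hormone and insulin axis and 6 for imprinted genes and Igf2 messenger RNA binding proteins. By median log2 fold change they lay at -0.01, -0.28 and -0.11 in caPI3K and at -0.09, 0.03 and -0.21 in dnPI3K against NTG. Igfbp7, a relative that binds IGF weakly, read 259.8 ± 69.3 in caPI3K, 161.7 ± 44.9 in NTG and 154 ± 21.3 in dnPI3K (0.69 ± 0.302 against NTG, adjusted p = 0.705). Cish, a feedback inhibitor of growth hormone signalling through Stat5, read 552 ± 138 in caPI3K, 847.2 ± 82.3 in NTG and 900.6 ± 62.4 in dnPI3K. Its difference between caPI3K and dnPI3K, -0.74 ± 0.178, had an adjusted p of 0.0523, and that of Stat5b, -0.85 ± 0.214, one of 0.0616. Cish passed under 4 of 16 other settings (lowest adjusted p = 0.0315, without caPI3K replicate 3) and Stat5b under 1 (adjusted p = 0.0244, with the floor at the 40th percentile).

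Dlk1, an imprinted gene that like Igf2 is active before birth, read 302.1 ± 55.1 in NTG, 281.8 ± 39.5 in caPI3K and 228.5 ± 28.3 in dnPI3K, with overlap between the groups. Its log2 fold change in dnPI3K against NTG was -0.39 ± 0.217 (adjusted p = 0.449). Igf2bp1, whose protein binds Igf2 messenger RNA, was on the floor on all 3 dnPI3K arrays and on 2 of 3 NTG arrays.

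By Pearson correlation over the 9 arrays, the genes most like each member were named as a description. For Igfbp3 (95083_at) they were Amz2 (0.961) and the nuclear receptor gene Rora (0.960), and for Igf2 they were Agpat3 (0.954) and Mbp (0.947). For Igf1 they were Slc39a4 (0.946) and H2-DMb2 (0.933), for Igfbp2 Cstb (0.934) and Pigx (0.914), for Igfbp4 Cyth2 (0.943) and Prdm1 (0.920), for Igfbp6 Fzd8 (0.928) and Cd24a (0.921), and for the joint probe set Sardh (0.957) and Pex19 (0.941). Each pair was the highest among the tested genes with a probe set of their own, out of 8252 such symbols before the filter. Over 9 arrays, a search this wide returns high correlations even among unrelated genes, and shared control was not tested. Correlation ignores the size of a change. Against NTG, Amz2 differed by -0.09 in caPI3K and 0.05 in dnPI3K on the log2 scale, and Rora by -1.04 and 0.5. Among the members themselves, the joint probe set followed Igfbp4 (94222_at) with a correlation of 0.85, and 0.75 with the group means removed.

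**Figure D4:**
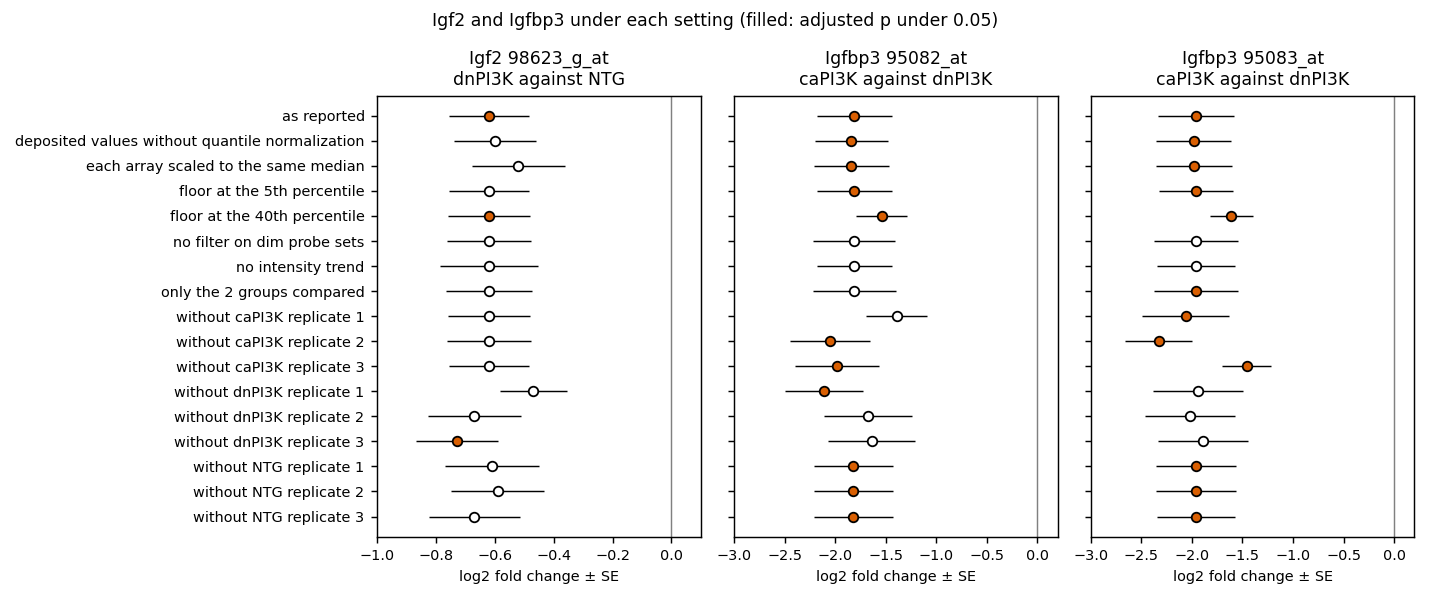
Log2 fold change ± SE (horizontal axes) of Igf2 in dnPI3K against NTG and of both Igfbp3 probe sets in caPI3K against dnPI3K, as reported and under 16 other settings. Filled points had an adjusted p under 0.05. All points lie on the same side of 0, Igf2 between -0.73 and -0.47, and Igf2 passed under 2 of the 16 settings the Igfbp3 probe sets under 10 (95082_at) and 11 (95083_at).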

How the data were processed

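Ventricular RNA of 9 mice was measured on 9 one-colour oligonucleotide arrays, in 3 groups of 3 read from the sample titles; replicate numbers follow deposition order and pair no animals. The authors deposited 1 intensity per probe set and array on a linear scale, scaled so that the mean without the lowest and highest 2% is 500.4 on every array; the software behind it is not named in the labels, which give the scanner's photomultiplier as 10%. Symbols came from the platform annotation. These intensities were quantile normalized, floored at the 20th percentile, taken to log2, filtered (above the floor on at least 3 arrays, 66 controls removed) and fitted with limma 3.58.1 in R 4.3.3 (group only, all 9 arrays, intensity trend, 6 residual degrees of freedom, two-sided, Benjamini-Hochberg over 10645 probe sets). With 3 arrays a group, array number limits the precision.

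The members and gene lists were chosen with earlier results of these data known. Every member probe set is named; of each pathway list, genes past the threshold and otherwise the 2 of smallest F-test p, represented by their brightest probe set; and for each member the 2 most correlated genes. Promoter sequences are from RefSeq (GRCm38.p6). All 7 member genes were found there. The array files name no genome build. Alternatives changed normalization, floor, filter, trend, the groups fitted, the animal number series as a block, or left out 1 array.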

Additional observations from a re-analysis of the deposited data

How the results depend on the processing

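Of 60 log2 fold changes followed under 17 other settings (members and named pathway genes), 35 kept direction and side of the threshold throughout. In caPI3K against NTG 0 of the member probe sets passed under every setting, a block for animal number series among them, and 1 to 2 had an unadjusted p under 0.05 with 1 array left out. In dnPI3K against NTG the count of 1 (Igf2) became 0 with the deposited values, with arrays scaled to the same median, with the floor at the 5th percentile, without the filter, without the intensity trend and with only the 2 groups fitted, and 2 with the floor at the 40th percentile, where Igfbp3 (95082_at) joined; with 1 array left out it was 0 to 1. In caPI3K against dnPI3K the count of 2 (both Igfbp3) became 0 without the filter or the trend and 1 with only the 2 groups fitted, and lay at 0 to 2 with 1 array left out. By the moderated F the count of 1 became 0 without the filter or the trend and 2 with the floor at the 40th percentile, and lay at 0 to 1 with 1 array left out. Over all probe sets, 232 passed in dnPI3K against NTG, beside 138 without the filter and 94 each without the trend and with only the 2 groups; with 1 array left out it was 82 to 235, and 134 to 435 (345 as reported) in caPI3K against dnPI3K. The cause was not tested; removing the filter adds tested probe sets. Irs2 passed in caPI3K against dnPI3K under all 16 settings and in dnPI3K against NTG under 6 of 16.

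Reversals concerned values that never passed. With arrays scaled to the same median, caPI3K against NTG was 0.05 for Igfbp4 (101571_g_at) and 0.04 for Igfbp6, and with the floor at the 5th percentile Irs1 was 0.30 there and Igfbp1 0.17 in caPI3K against dnPI3K. With 1 array left out, the range crossed 0 in caPI3K against NTG for Igf1 (95545_at, -0.02 to 0.47, and 95546_g_at, -0.10 to 0.85), Igfbp2 (-0.43 to 0.05), Igfbp4 (101571_g_at, -0.21 to 0.09), Igfbp6 (-0.27 to 0.22), Irs1 (-0.29 to 0.22) and Dlk1 (-0.24 to 0.03). It did so in dnPI3K against NTG for Igf1 (95545_at, -0.34 to 0.15), Igfbp4 (101571_g_at, -0.07 to 0.23, and 94222_at, -0.45 to 0), Igfbp6 (-0.47 to 0.03), the joint probe set (-0.28 to 0.06) and Igfbp7 (-0.30 to 0.10), and in caPI3K against dnPI3K for Igfbp4 (101570_at, -0.11 to 0.01), Igf1r (-0.17 to 0.10) and Igfbp1 (-0.19 to 0.17). Dim probe sets near the floor limit Igf2 (98622_at), Igfbp4 (101570_at), Irs1 and Igfbp1 (both probe sets). No paired analysis was possible because replicate numbers here only follow deposition order and no animal number recurs between groups; the coarser number series, shared by caPI3K and NTG only, was the block above, and no such block exists for dnPI3K.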
